A study of Homo sapiens with 23 samples.

Results

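The response of lung fibroblasts to the cytokine IL-13 was compared between cells that had first been primed with TNF and IL-17 and cells that had not, as a difference of differences: (Pre_IL13 minus Pre_only) minus (IL13 minus Control). The comparison was made for all 12994 genes detected on the arrays. Its 4 groups hold 15 of the 23 samples of the series, and the model that gave its errors and its passage term was fitted to all 23. Cells were CCL-75, a line of human lung fibroblasts, at culture passage 6 or 8, and RNA levels were read on Illumina bead arrays of 1 colour. Pre_IL13 (4 arrays) received TNF plus IL-17 for 72 hours, was washed and then received IL-13 for 20 hours, and Pre_only (3 arrays) received TNF plus IL-17 without IL-13. IL13 (4 arrays) received IL-13 alone for 20 hours, and Control (4 arrays) received neither. In 8 further arrays, Pre_Ab_IL13 and Pre_Ab_only (4 each), the primed cells also received a neutralising antibody to IL-13Ra2 during the last 1 hour of priming. All cells were of 1 line, so the values describe this line only. An array's name gives its passage, then its experiment (P6-A). The labels call A and B technical replicates and the design text calls them independent experiments, and the 2 passages are given as the biological replicates. Pre_only was analysed on P6-A, P6-B and P8-B.

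IL-13 is a cytokine of type 2 immunity that signals through a receptor made of IL-13Ra1 and IL-4Ra and activates the transcription factor STAT6. STAT6 targets in fibroblasts include the eotaxins, chemokines that attract eosinophils, and SOCS proteins that limit cytokine signalling. IL-13Ra2 binds the same cytokine with high affinity and is known mainly as a decoy receptor, and TNF with IL-17 raises its expression in fibroblasts. TNF and IL-17 act through NF-kB and related factors and induce chemokines of their own.

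Between 17818 and 20167 probes were detected per array. The 15 fibroblast markers were detected on all 15 arrays of the 4 groups, and their mean level, as log2 normalised intensity, was 10.8 to 11.0 in Pre_IL13, 10.8 to 11.1 in Pre_only, 10.5 to 10.8 in IL13 and 10.5 to 10.7 in Control. Of the markers of other cell types that had a probe with a single symbol, whether detected or not, 1 of 6 epithelial genes (MUC1), 1 of 3 endothelial genes (TEK) and 3 of 7 leukocyte genes (CD14, CD68 and LYZ) were detected on all of these arrays. The detection filter kept 3, 2 and 6 of them. The mean level of the endothelial list, which covers TEK and VWF only, was 5.76 to 6.26 in Pre_IL13, 6.12 to 6.30 in Pre_only, 5.60 to 5.95 in IL13 and 6.16 to 6.33 in Control. The part of this list in the results below was not tested. In RNA of whole cultures, fewer cells of a type and less RNA per cell cannot be told apart. Bead intensities were least even on both IL13 arrays of passage 6, where the standard error within a probe was 5.46% and 5.31% of its mean, against 3.14% to 3.64% on the other arrays. The passages were hybridised on separate beadchips, so the effects of passage and of beadchip cannot be told apart.

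The response to IL-13 was smaller in primed cells for most of the genes whose responses differed. Of 12994 genes, 39 (0.3%) had a called difference, at a limma adjusted p under 0.05, with 33 lower (0.254%) and 6 higher (0.0462%) after priming. Fitted to the 15 arrays of the 4 groups alone, the model called 31 of them, without BBS12, DRAM1, INKA2, LMCD1, MOK, PIM1, PRRX1 and VCAM1. In all 39 the IL-13 response without priming had the opposite direction to the difference. That response enters the difference with a minus sign and the genes were chosen on the difference, so this is largely built in. IL-13 called 243 genes (1.87%) without priming, of which 150 rose (1.15%) and 93 fell (0.716%), and 4 genes (0.0308%) after priming, of which 4 rose and 0 fell, with 833 at an unadjusted p under 0.05. The count after priming ran from 1 to 45 when 1 array was left out, with 45 without Pre_only P8-B, and 1 when the array omitted was Pre_IL13 P8-A or either passage 6 array of Pre_only. Among the 243 genes, the response was lost in 33, meaning that the difference was called and no called response was left after priming. In 28 of these IL-13 raised the gene without priming and in 5 it lowered it. One gene, CCL26, kept a called but smaller response. In 3 genes (NFIL3, TMEM100 and MARCHF4) the primed response had the opposite sign at an unadjusted p under 0.05. The primed response is also a term of the difference on which these genes were chosen. A choice on a large difference favours an opposite primed sign, so this p is not independent evidence of a reversal. Over all 12994 genes, 337 had a primed response of opposite sign at an unadjusted p under 0.05. The count of 3 reversed genes ran from 0 to 9 when 1 array was left out. In 1 gene, CDH6, the response was called in both settings and the difference was not. No gene had a called larger response after priming. For the other 205 genes neither the difference nor the primed response was called, so these data do not place them. A further 2 genes, NDP and BBS12, had a called difference without a called response in unprimed cells. The plot of both IL-13 responses shows these classes.

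**Figure D1:**
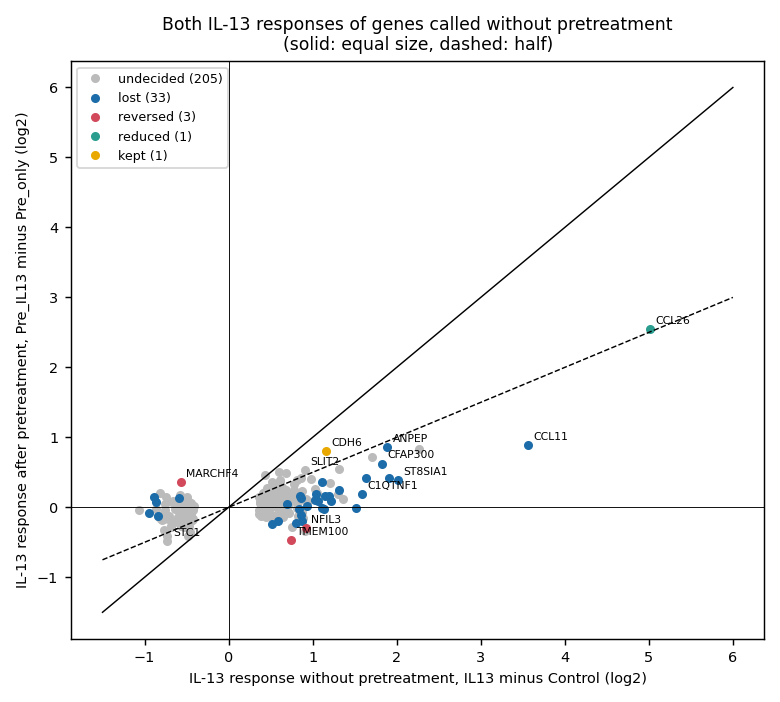
Response to IL-13 after priming (Pre_IL13 minus Pre_only, log2, vertical) against the response without priming (IL13 minus Control, log2, horizontal) for the 243 genes called without priming, coloured by class. The solid line marks equal responses and the dashed line a primed response of 0.5 of the unprimed one; CCL26 lies on the dashed line and most other genes near 0 on the vertical axis.

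A lost call is not a response of 0, and the label moved with the setting. Without both IL13 arrays of passage 6 the primed response of CCL11 was called. With arrays weighted by their fit to the model, those of ANPEP and CFAP300 were called. The 95% interval of the primed response included 0 in 26 of the 33 genes and lay above 0 in 7, which were CCL11, ST8SIA1, LRRC8B, PTGIS, CFAP300, ANPEP and TMEM171. Among the 26, MYB and SOX11 were not above background on any Pre_IL13 array. SCUBE3 and RGS1 were not above background in Pre_only, and primed LIFR values lay near the floor. Primed changes of these genes are compressed, so their intervals say little. Of the 33 genes, 18 changed at least 2-fold without priming. After it 0 did so, and 3 changed at least 1.5-fold. The rule for a lost response asks for no called primed response on these same arrays, so small primed responses are largely built in.

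Promoter windows of 300 bases (250 before the transcription start to 50 after it) were taken from a supplied set of RefSeq windows (build GRCh38.p14). The set held 27 of the 39 genes and lacked 12, among them CCL11, C1QTNF1 and ADAMTS1. Windows are shown for CCL26, the gene with the largest response, and for CCL7 and LIFR. The CCL7 and LIFR windows hold TTC and GAA with 3 bases of any kind between them, a spacing bound by several STAT proteins. With 4 bases between them the same letters make the spacing preferred by STAT6. Capitals mark a match to either. The CCL26 window (chr7:75789697-75789996, minus strand) holds neither. A single window per gene was searched, so other transcription starts and more distant sequence of a gene were not covered. The CCL7 window (chr17:34269971-34270270, plus strand) and the LIFR window (chr5:38595356-38595655, minus strand) hold a match 250 and 165 bases before the start.
CCL26: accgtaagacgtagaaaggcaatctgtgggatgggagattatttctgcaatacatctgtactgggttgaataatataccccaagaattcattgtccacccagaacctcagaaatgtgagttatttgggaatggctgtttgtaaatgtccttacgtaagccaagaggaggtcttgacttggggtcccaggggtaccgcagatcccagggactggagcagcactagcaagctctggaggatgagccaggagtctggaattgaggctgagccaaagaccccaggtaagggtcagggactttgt
CCL7: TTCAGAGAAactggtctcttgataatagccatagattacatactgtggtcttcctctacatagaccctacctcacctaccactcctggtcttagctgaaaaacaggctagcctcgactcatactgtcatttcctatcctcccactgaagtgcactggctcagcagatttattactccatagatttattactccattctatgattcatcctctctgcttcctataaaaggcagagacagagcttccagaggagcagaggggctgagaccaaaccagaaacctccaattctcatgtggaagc
LIFR: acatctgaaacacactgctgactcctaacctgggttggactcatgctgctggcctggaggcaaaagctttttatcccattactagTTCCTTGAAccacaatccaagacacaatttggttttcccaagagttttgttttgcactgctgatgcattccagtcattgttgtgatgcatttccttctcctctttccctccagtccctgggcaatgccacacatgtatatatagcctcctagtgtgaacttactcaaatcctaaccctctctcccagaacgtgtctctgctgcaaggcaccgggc

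Both motifs read the same on either strand. The spacing of 4 was present in 1 of the 27 windows (INKA2, the match TTCCCGCGAA beginning 43 bases before the start) and in 6.439% of all 35116 windows. The spacing of 3 was present in 4 (CCL7, LIFR, LYPD1 and SFR1) and in 7.657% of all windows. A match is a description of the letters only.

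The eotaxins showed the largest differences. CCL26, which encodes eotaxin-3, had levels of 8.40 and 7.92 (P6-A, P6-B) and 9.58 and 9.53 (P8-A, P8-B) in Pre_IL13, against 5.94, 6.53 and 6.30 in Pre_only. Without priming its levels were 10.55, 10.41, 10.66 and 10.50 in IL13, against 5.57, 5.34, 5.47 and 5.67 in Control. Neither pair of groups overlapped, and the primed cells with IL-13 stayed below every IL13 array. The fitted rise was 2.55 ± 0.22 (SE, n = 4 and 3, limma adjusted p = 1.25e-08) after priming, a 5.84-fold change, and 5.02 ± 0.20 without it (n = 4 and 4), a 32.4-fold change, so 50.7% of the log2 response was left. The difference was -2.47 ± 0.29 (limma adjusted p = 1.45e-05), with -1.75 in passage 8 and -3.10 in passage 6.

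The gene for another eosinophil chemokine, eotaxin-1 (CCL11), was at 5.30, 5.36, 5.85 and 5.62 in Pre_IL13, against 4.78, 4.64 and 4.66 in Pre_only. In IL13 it was at 8.65 and 9.21 on the passage 6 arrays and 6.95 and 6.73 on the passage 8 arrays. It was not above background on any of the 4 Control arrays, and IL13 was at least 9.52-fold over Control. The fitted response was 0.89 ± 0.31 (limma adjusted p = 0.537) after priming and 3.56 ± 0.28 without, and the difference was -2.67 ± 0.42 (limma adjusted p = 7.19e-04). CCL11 was the 1 gene of the 39 whose difference itself differed between the passages by a called amount: -1.45 in passage 8 and -3.97 in passage 6, a gap of 2.51 (limma adjusted p = 0.00109).

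**Figure D2:**
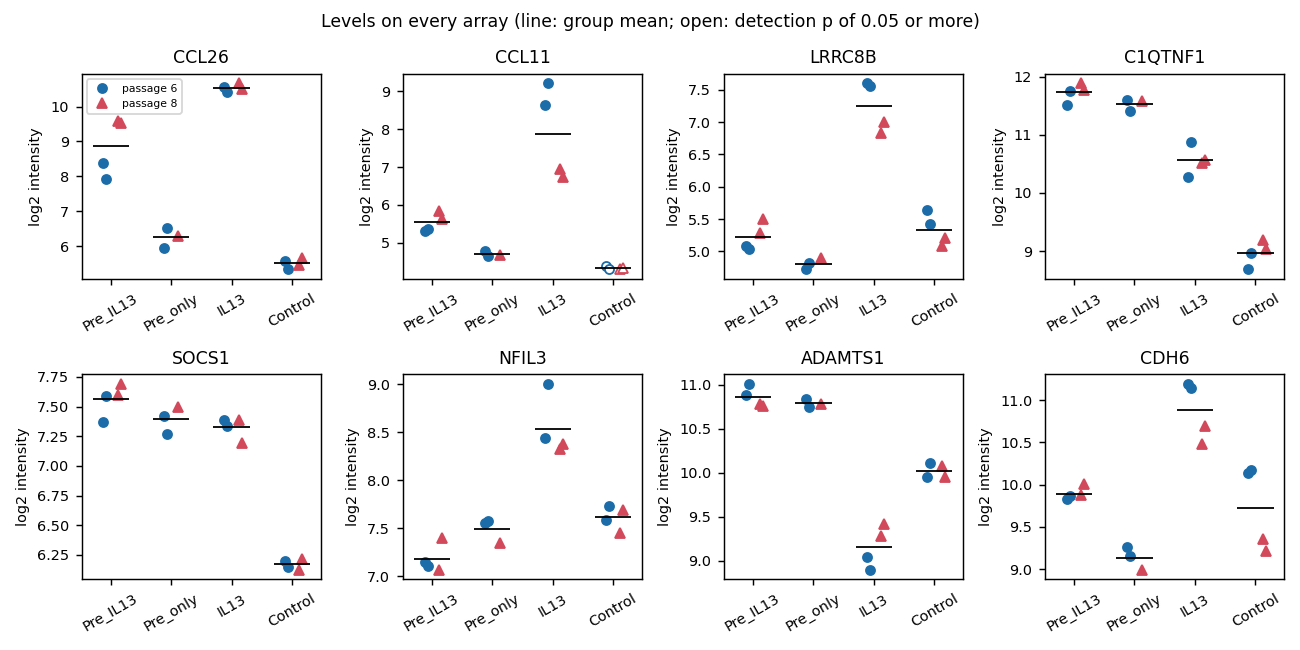
Log2 normalised intensity on every array of Pre_IL13, Pre_only, IL13 and Control for 8 genes, with circles for passage 6, triangles for passage 8, bars for the group mean and open symbols for a detection p of 0.05 or more. CCL26 separates by passage in Pre_IL13 and CCL11 in Pre_IL13 and IL13, and ADAMTS1 is low on the 4 IL13 arrays only.

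The monocyte chemokine genes CCL7 and CCL2 and the adhesion gene VCAM1 were already high after priming alone. CCL7, which attracts monocytes, was at 8.89, 8.98, 8.93 and 8.93 in Pre_IL13 and at 9.13, 9.17 and 8.47 in Pre_only, so these groups overlapped. It was at 6.26, 6.76, 7.22 and 7.19 in IL13, against 5.19, 5.03, 5.54 and 5.62 in Control. The response was -0.01 ± 0.21 after priming and 1.52 ± 0.19 without (difference -1.53 ± 0.28, limma adjusted p = 0.0052), and Pre_only was above Control by 3.60 ± 0.21. The CCL7 call ended with no background correction, an offset of 50, median scaling, the authors' normalised table, experiment B alone or A and B averaged. CCL2, the related monocyte chemokine, followed with 0.10 ± 0.10 and 1.02 ± 0.09 (difference -0.92 ± 0.14, limma adjusted p = 3.89e-04). VCAM1, which binds leukocyte integrins, gave 0.05 ± 0.09 after priming and 0.69 ± 0.09 without (difference -0.64 ± 0.13, limma adjusted p = 0.0136). Its call ended without Control P6-B, Pre_only P6-A or Pre_only P6-B (adjusted p up to 0.0937). For CCL2 and VCAM1 Pre_only stood 1.32 ± 0.10 and 1.20 ± 0.09 above Control. The difference of responses and the priming effect share the Pre_only and Control arrays, so their values are set side by side only. Priming alone called 3223 of all genes (24.8%), with 1559 higher (12%) and 1664 lower (12.8%).

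C1QTNF1, which encodes a secreted protein of the C1q and TNF related family, was at 11.52, 11.75, 11.88 and 11.77 in Pre_IL13, against 11.60, 11.40 and 11.58 in Pre_only. Unprimed cells were at 10.27, 10.88, 10.51 and 10.57 in IL13, against 8.68, 8.97, 9.19 and 9.04 in Control. Every primed array thus lay above every array of unprimed cells given IL-13. The responses were 0.19 ± 0.11 and 1.59 ± 0.11, and the difference was -1.40 ± 0.16 (limma adjusted p = 6.53e-06). The 2 dimmer probes of the gene gave -1.03 ± 0.19 and 0.11 ± 0.16 for this difference. CCL26, C1QTNF1 and LIFR were the 3 genes still called when experiments A and B were averaged within each passage.

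Several signalling genes lost their response. SOCS1, which inhibits JAK-STAT signalling, was at 7.37, 7.58, 7.60 and 7.69 in Pre_IL13, against 7.42, 7.27 and 7.49 in Pre_only, and at 7.39, 7.34, 7.38 and 7.19 in IL13, against 6.20, 6.15, 6.12 and 6.21 in Control. Only the Control arrays were low. The responses were 0.16 ± 0.11 after priming and 1.15 ± 0.10 without, a difference of -0.998 ± 0.14 (limma adjusted p = 3.42e-04). LIFR, a receptor chain for leukemia inhibitory factor, was not above background on the Control arrays. It was above background on 1 of 4 Pre_IL13 arrays and 2 of 3 Pre_only arrays, so its primed values lie near the floor. IL13 was at least 1.89-fold over Control, and the difference was -1.17 ± 0.21 (limma adjusted p = 0.00489). IL17RA, a chain of the IL-17 receptor, responded by 0.17 ± 0.16 after priming and 1.19 ± 0.15 without. RGS2, a regulator of G protein signalling, gave -0.19 ± 0.15 and 0.87 ± 0.14, and PIM1, a serine/threonine kinase, 0.19 ± 0.14 and 1.04 ± 0.13, where IL13 was at least 1.69-fold over a Control group not above background. RGS1, of the same family as RGS2, was not above background in Pre_only or Control, and IL13 was at least 1.62-fold over Control. Leaving out single arrays ended the calls of IL17RA, PIM1 and RGS1 in 10 to 12 of 15 runs, and that of RGS2 without Pre_only P6-B.

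Channels, enzymes and secreted proteins made up the next group of lost responses. LRRC8B, which forms part of the volume-regulated anion channel, was at 5.08, 5.04, 5.28 and 5.50 in Pre_IL13, against 4.72, 4.82 and 4.90 in Pre_only. It was at 7.60, 7.55, 6.83 and 6.995 in IL13, against 5.64, 5.42, 5.08 and 5.20 in Control. All primed arrays lay below all IL13 arrays. The response was 0.41 ± 0.18 after priming and 1.91 ± 0.16 without (difference -1.49 ± 0.24, limma adjusted p = 8.71e-04). ST8SIA1, a sialyltransferase of ganglioside synthesis, gave 0.38 ± 0.18 after priming (at least 1.26-fold over a Pre_only group not above background) and 2.01 ± 0.16 without (difference -1.63 ± 0.24, limma adjusted p = 3.42e-04). PTGIS, which makes prostacyclin, gave 0.42 ± 0.18 and 1.64 ± 0.16, with Pre_only 1.44 below Control, and its call ended without Pre_IL13 P6-A, Pre_only P6-B or Pre_only P8-B.

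ANPEP, the cell surface aminopeptidase N, was at 8.04, 8.12, 9.42 and 9.21 in Pre_IL13, against 7.56, 7.50 and 8.06 in Pre_only, and at 9.14, 9.41, 9.86 and 9.91 in IL13, against 7.49, 7.32, 8.01 and 7.94 in Control. Within each passage both pairs of groups were apart. The primed response of 0.86 ± 0.17 was 45.5% of the unprimed 1.89 ± 0.16 and missed the threshold by little (limma adjusted p = 0.059). The difference of -1.03 ± 0.24 passed it by as little (limma adjusted p = 0.0482), and 11 of 15 runs without 1 array ended the call. CFAP300, a cilia and flagella associated gene, kept 34.1% (0.62 ± 0.16 against 1.83 ± 0.14), and TMEM171, a transmembrane protein gene, 32.1% (0.36 ± 0.12 against 1.11 ± 0.11). The secreted protein gene SCUBE3, not above background in Pre_only, rose by 1.06 ± 0.10 without priming. PPFIBP2, a liprin, gave 0.09 ± 0.14 and 1.22 ± 0.13, and the recombination repair gene SFR1 0.25 ± 0.15 and 1.32 ± 0.13. DCLK1, a doublecortin-like kinase, gave -0.00 ± 0.13 and 1.12 ± 0.12, and the GPI-anchored protein gene LYPD1 -0.02 ± 0.12 and 0.84 ± 0.11. Second probes gave smaller differences of -0.38 for DCLK1 (against -1.12), -0.42 for LYPD1 (-0.86), -0.62 for SFR1 (-1.07) and -0.69 for CFAP300 (-1.20). The same held for ST8SIA1 (-0.73 against -1.63), PRRX1 (-0.38 against -0.78) and TRIM55 (0.58 against 1.03). For VCAM1 the other probes gave larger differences, -0.74 and -1.29 against -0.64. Runs without 1 array ended the TMEM171 call in 9 of 15 cases and the LYPD1 call in 1, without Pre_only P6-B.

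**Figure D3:**
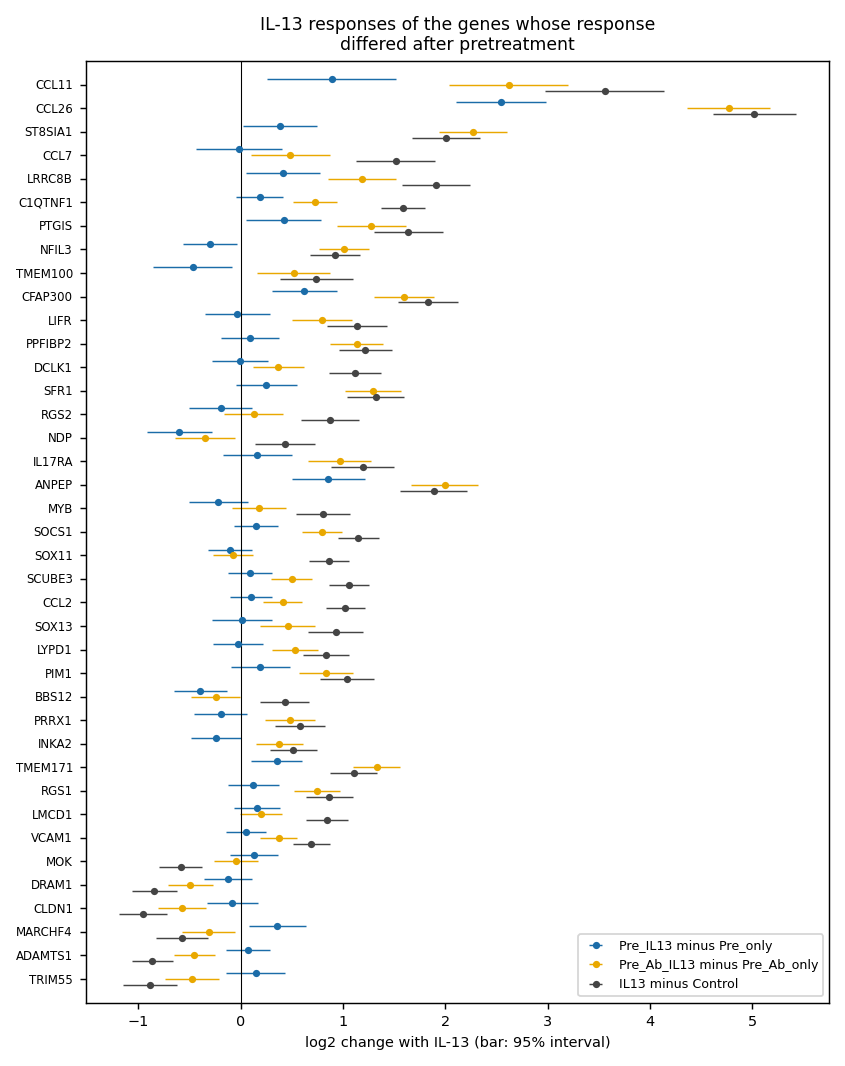
Log2 change with IL-13 in the 39 genes with a called difference, with 95% intervals, after priming (blue), after priming plus antibody to IL-13Ra2 (yellow) and without priming (dark). For CCL26 the points lie at 2.55 (blue), 4.77 (yellow) and 5.02 (dark).

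Transcription factor genes were in the list as well. NFIL3, a bZIP repressor, was at 7.15, 7.11, 7.07 and 7.40 in Pre_IL13, against 7.55, 7.57 and 7.35 in Pre_only, and at 8.44, 9.004, 8.33 and 8.38 in IL13, against 7.59, 7.74, 7.45 and 7.69 in Control. The 4 IL13 arrays stood above all others, and 3 of the 4 Pre_IL13 arrays were below all Pre_only arrays. The response was -0.30 ± 0.13 after priming and 0.92 ± 0.12 without (difference -1.22 ± 0.17, limma adjusted p = 3.42e-04). The primed change of NFIL3 did not pass the adjusted threshold (limma adjusted p = 0.719). MYB and SOX11 rose by 0.81 ± 0.13 and 0.87 ± 0.10 without priming. SOX13 gave 0.01 ± 0.14 after priming and 0.93 ± 0.13 without. PRRX1, a homeobox gene of mesenchymal cells, gave -0.19 ± 0.13 and 0.58 ± 0.12, and LMCD1, a LIM domain gene, 0.16 ± 0.11 and 0.84 ± 0.10. MYB and SOX11 were not above background on any Pre_IL13 array, and SOX11 on no Pre_only array either, so no primed change is given for them. The calls of SOX13, PRRX1 and LMCD1 ended in 7 to 10 of 15 runs without 1 array.

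The other genes with an opposite primed sign were TMEM100 and MARCHF4. TMEM100, a transmembrane protein gene, was at 6.30, 6.30, 6.54 and 6.74 in Pre_IL13, against 7.15, 6.74 and 6.76 in Pre_only, a response of -0.47 ± 0.19 (limma adjusted p = 0.679). It was at 5.08, 5.32, 6.03 and 5.90 in IL13, against 4.77, 4.64, 4.89 and 5.08 in Control, a response of 0.74 ± 0.17. MARCHF4, which encodes an E3 ubiquitin ligase, gave 0.36 ± 0.14 after priming (limma adjusted p = 0.655) and -0.57 ± 0.13 without (difference 0.93 ± 0.19, limma adjusted p = 0.0124). None of the 3 reversals passed the adjusted threshold on the primed side. No gene met the rule for a reversal without Pre_IL13 P6-B, Pre_only P6-A or Pre_only P6-B. The same held with median scaling, experiment B alone or A and B averaged. Without Pre_only P8-B 9 genes met it, and in passage 6 alone 15. Leaving out single arrays ended the TMEM100 call in 9 of 15 runs and the MARCHF4 call in 3. NDP, which encodes the Wnt receptor ligand norrin, gave -0.60 ± 0.16 and 0.44 ± 0.14 (limma adjusted p = 0.263 and 0.136), and BBS12, a chaperonin-like gene of the cilium, -0.39 ± 0.13 and 0.43 ± 0.12. INKA2, an inhibitor of the kinase PAK4, gave -0.24 ± 0.12 and 0.52 ± 0.11, and its other probes gave differences of -0.23 to 0.21. The calls of NDP, BBS12 and INKA2 ended in 4 to 10 of 15 runs.

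The remaining 5 lost responses were falls in unprimed cells. ADAMTS1, a secreted metalloprotease that cleaves proteoglycans, was at 10.88, 11.01, 10.79 and 10.76 in Pre_IL13, against 10.83, 10.75 and 10.78 in Pre_only. It was at 9.04, 8.89, 9.28 and 9.42 in IL13, against 9.95, 10.11, 10.08 and 9.95 in Control. The 4 IL13 arrays were the lowest. The response was 0.07 ± 0.11 after priming and -0.86 ± 0.10 without, and the difference was 0.93 ± 0.14 (limma adjusted p = 5.14e-04). CLDN1, a tight junction protein, was at 9.31, 9.55, 9.20 and 9.34 in Pre_IL13, against 9.42, 9.50 and 9.36 in Pre_only, and at 6.47, 5.93, 6.08 and 6.15 in IL13, against 7.20, 7.10, 7.09 and 7.04 in Control. Its responses were -0.08 ± 0.12 and -0.95 ± 0.11 (difference 0.87 ± 0.17, limma adjusted p = 0.00822). The CLDN1 call ended with no background correction, median scaling, the authors' normalised table, either passage alone, experiment B alone or A and B averaged.

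DRAM1, a regulator of autophagy, gave -0.12 ± 0.12 after priming and -0.84 ± 0.11 without, with Pre_only 1.20 ± 0.12 above Control. TRIM55, a RING finger protein of muscle, gave 0.15 ± 0.14 and -0.89 ± 0.13, with Pre_only 1.05 below Control. MOK, a kinase related to the MAP kinases, gave 0.13 ± 0.11 and -0.59 ± 0.11. The calls of DRAM1 and MOK each ended in 9 of 15 runs without 1 array. The plot of mean levels shows where each gene stood before IL-13 in primed and in unprimed cells.

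**Figure D4:**
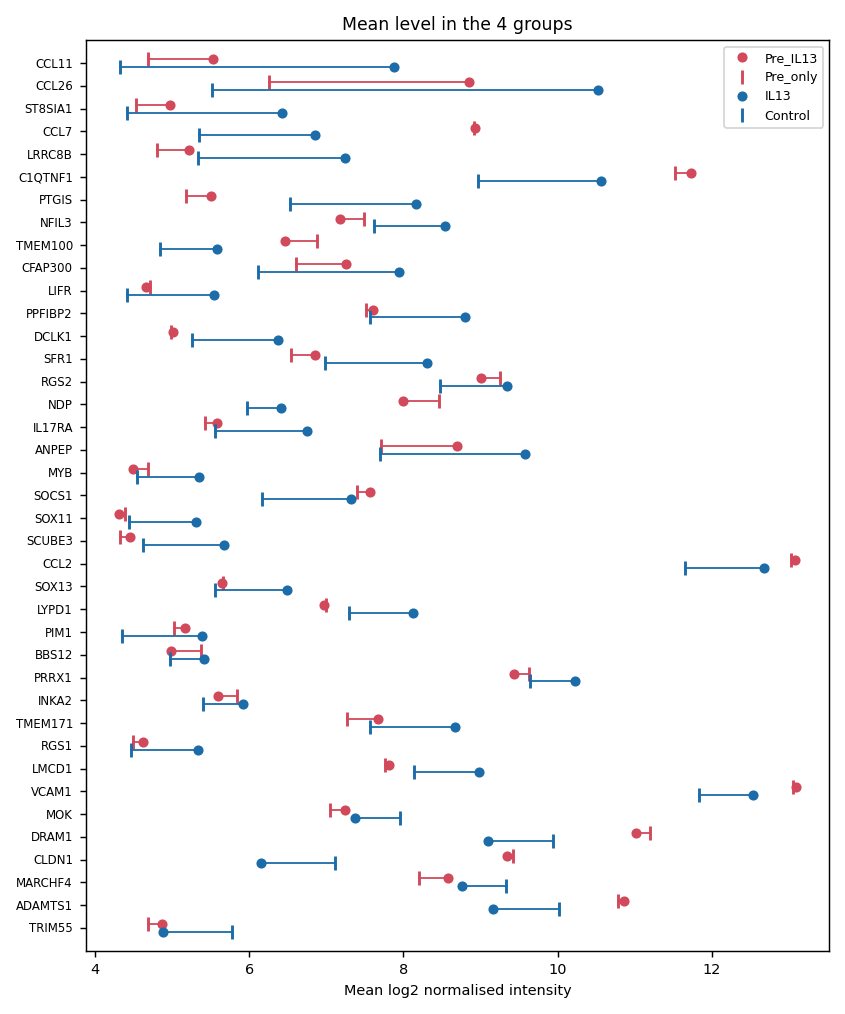
Mean log2 normalised intensity of the 39 genes in the 4 groups, with primed cells in red above unprimed cells in blue, circles with IL-13 and ticks without it, and a line joining each pair. The red line is longest for CCL26, and for C1QTNF1, CCL7, CCL2, VCAM1 and CLDN1 they lie to the right of both blue points.

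One response met the rule for a kept response. CDH6, a cadherin of cell adhesion, was at 9.83, 9.87, 9.87 and 10.00 in Pre_IL13, against 9.26, 9.15 and 8.99 in Pre_only, and at 11.19, 11.15, 10.48 and 10.69 in IL13, against 10.14, 10.17, 9.36 and 9.22 in Control. The response was 0.80 ± 0.14 (limma adjusted p = 0.0268) after priming and 1.16 ± 0.13 without, and the difference of -0.35 ± 0.20 was not called (limma adjusted p = 0.679). WFDC1, a secreted protease inhibitor homologue, and OXTR, the oxytocin receptor, rose after priming by 0.67 ± 0.12 and 0.52 ± 0.10. They gave 0.12 ± 0.11 and 0.28 ± 0.09 without it, which were not called, and neither difference was called (limma adjusted p = 0.27 and 0.686). Of 15 runs without 1 array, the primed call of CDH6 held in 10, those of WFDC1 and OXTR in 8 each and that of CCL26 in 15.

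Genes not called after priming but with at least 0.5 of the response left included SLIT2, an axon guidance ligand (0.53 ± 0.13 against 0.91 ± 0.12), TRPC6, a cation channel (0.51 ± 0.15 against 0.60 ± 0.14), and PTGER4, a prostaglandin E2 receptor (0.49 ± 0.15 against 0.69 ± 0.14). STC1, which encodes the secreted glycoprotein stanniocalcin-1, gave -0.48 ± 0.14 after priming and -0.73 ± 0.13 without. Their differences had limma adjusted p-values of 0.599 to 0.948.

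The receptor system itself showed no called difference in the main fit. That of IL13RA2 was called in passage 6 alone and in 1 of 15 runs without 1 array, the run without Pre_only P8-B. IL13RA2 gave 0.27 ± 0.15 after priming and 1.03 ± 0.14 without (difference -0.76 ± 0.21, limma adjusted p = 0.191), with levels of 11.66, 11.81, 11.65 and 11.64 in Pre_IL13, against 11.71, 11.32 and 11.15 in Pre_only. Unprimed levels were 8.46, 8.26, 8.84 and 8.81 in IL13, against 7.29, 7.10, 7.96 and 7.91 in Control. Every primed array was above every unprimed one. The difference was -0.22 ± 0.14 for IL13RA1, 0.04 ± 0.16 for IL4R and 0.07 ± 0.15 for STAT6 (limma adjusted p of 0.719 to 0.973). POSTN, which encodes the matrix protein periostin, gave 0.35 ± 0.21 and 1.21 ± 0.20 (difference -0.86 ± 0.29, limma adjusted p = 0.347).

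Across the lists, 7 of 17 genes known to be induced by IL-13 or IL-4 had a called lower response after priming and 0 a higher one, against 0.254% lower over all genes. They were ANPEP, CCL11, CCL2, CCL26, PTGIS, SOCS1 and VCAM1, and the list's median difference was -0.76, against 0.01 over all genes. Without priming 12 of the 17 rose, against 1.15% of all genes, and 1 rose after it. A lower difference was called mostly in genes that rose without priming. The excess of this and the other lists over all genes is thus largely built in. Of all 150 genes that rose without priming, 28 lost the response, 1 kept a smaller one and 2 had the opposite primed sign. BATF3, CISH, IL13RA2, POSTN and TNC rose without priming and had no called difference. In the CC chemokine list 4 of 11 were lower (median -0.21), and in the TNF and NF-kB induced list 3 of 31 (median -0.10). In the SOCS family, the prostaglandin pathway, the anion channels, the C1q and TNF related genes and glycosphingolipid synthesis 1 member each was lower. Adhesion molecules had 1 lower and 1 higher (VCAM1 and CLDN1), and matrix proteases 1 higher (ADAMTS1).

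No member was called in the extracellular matrix list (34 genes, median -0.10), the CXC chemokines (11, -0.25), the IL-17 induced genes (18), the IL-13 receptor and STAT6 pathway (20, 0.01) or the interferon response (26, -0.20). The same held for the cell cycle (28), the integrated stress and unfolded protein response (24), cholesterol synthesis (17), glycolysis and hypoxia (26), metallothioneins and oxidative stress (21), immediate early and growth genes (22) and myofibroblast and smooth muscle genes (23). Without priming, 6 matrix genes rose (COL6A1, COL6A2, FBN2, LOX, POSTN and TNC), against 1.15% of all genes. In the cell cycle list 5 fell (CCNB2, CDC20, PCNA, TPX2 and UBE2C), against 0.716% of all genes, and in the metallothionein and oxidative stress list GCLM rose and MT1M and MT1X fell.

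Over all 243 genes, the median response in the direction seen without priming was 0.10 after priming and 0.60 without. The sign was the same in 174 (71.6%), against 52.8% of all 12994 genes. The 95% interval of the primed response excluded 0 with the same sign in 38 genes and with the opposite sign in 3. It lay wholly below 0.5 of the unprimed response in 88. Over all 12994 genes these counts were 496, 337 and 988. The primed response was at least 0.5 of the unprimed one in 24 of the 243 genes and larger than it in 1. Over all genes it was so in 4680 and 3272. For the 29 genes that changed at least 2-fold the medians were 0.25 and 1.30, and 26 kept the sign.

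Genes chosen and measured on the same unprimed arrays have inflated unprimed responses. Genes were therefore also chosen in unprimed cells of 1 passage and measured in the other. The 133 genes chosen in passage 6 had median responses in passage 8 of 0.13 after priming and 0.53 without, and the response was smaller after priming in 115. The 119 genes chosen in passage 8 had 0.08 and 0.75 in passage 6, and 105 were smaller after priming.

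Of the 39 differences, 6 were larger in passage 8 and 33 in passage 6. The 39 genes were chosen on both passages together, so the sign they share in both is nearly fixed by that choice. The gap between the passages had an unadjusted p under 0.05 in 14 of them, CCL26, ADAMTS1, CFAP300, PPFIBP2 and DCLK1 among these, and in 906 of all 12994 genes. Passage 6 alone gave 114 called genes and passage 8 alone, where Pre_only has 1 array, gave 8. Without both IL13 arrays of passage 6, whose beads were least even, 28 genes were called, 23 of the 39 among them. In the plot of both passages most points lie above the line of equal values on the negative side.

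**Figure D5:**
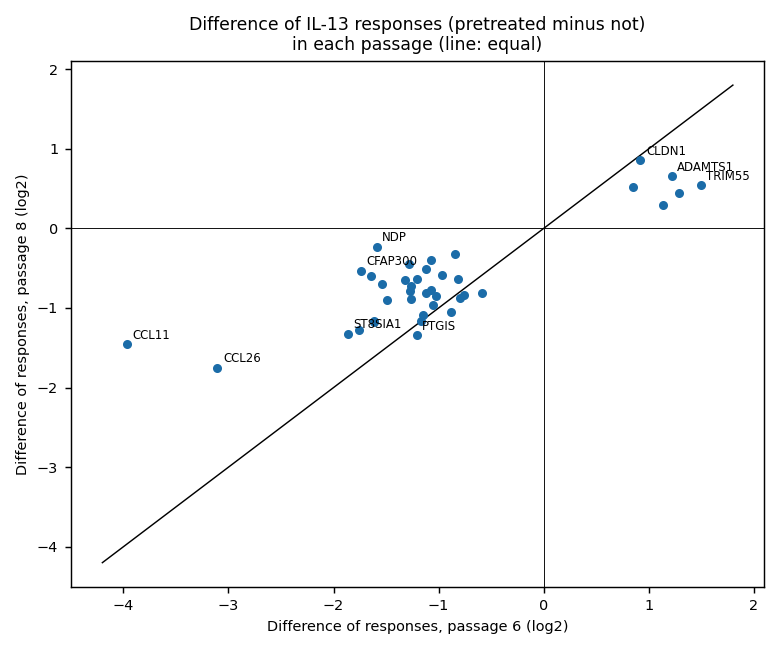
Difference of IL-13 responses (primed minus unprimed, log2) in passage 8 against passage 6 for the 39 called genes, with a line of equal values. CCL11 (-1.45 in passage 8 and -3.97 in passage 6) lies farthest from the line.

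The antibody arrays are not among the 4 groups of the difference, though they share its error estimate and passage term. Of the 33 genes with a lower primed response, 22 were called in Pre_Ab_IL13 minus Pre_Ab_only with the sign seen without priming (291 of all genes were called, 2.24%, with 1.15% higher and 1.09% lower), and 21 kept at least 0.5 of that response. CCL26 changed by 4.77 ± 0.20, CCL11 by 2.62 ± 0.28, ST8SIA1 by 2.27 ± 0.16, ANPEP by 1.99 ± 0.16 and NFIL3 by 1.01 ± 0.12. Smaller values were 0.73 ± 0.11 for C1QTNF1, 0.49 ± 0.19 for CCL7, 0.41 ± 0.09 for CCL2, 0.13 ± 0.14 for RGS2 and -0.07 ± 0.10 for SOX11. Of the 6 genes with a higher difference 4 were called with the antibody, ADAMTS1 at -0.45 ± 0.10 and CLDN1 at -0.57 ± 0.11. Whether the response with antibody differed from that without it was not tested here.

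Single arrays and settings moved the counts. Of the 39 calls, 20 held in all 15 runs that left out 1 array of the 4 groups, among them CCL26, C1QTNF1, CCL11, ST8SIA1, ADAMTS1, LRRC8B, SOCS1 and NFIL3. The count ran from 21 without Pre_only P6-B to 68 without Pre_only P8-B. With A and B averaged, as the label of technical replicate would have it, 3 genes were called. Scaling arrays by their median in place of quantiles left 9 of the 39 calls, with CCL26, CCL11, LRRC8B and ADAMTS1 among them and C1QTNF1 and SOCS1 not.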

How the data were processed

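Total RNA of CCL-75 cells was labelled with biotin and hybridised to bead arrays. The deposited scanner table holds mean bead intensity for 47323 probes on 23 arrays, exported from GenomeStudio 2011.1 per the submitters' processing notes, with a detection p-value beside each intensity per the file headers. The authors' deposited normalised table (31390 probes, log2 scale) was an alternative. The aligner of probes and any build are not given in the sources used here.

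Intensities were background-corrected and quantile-normalised with neqc (limma 3.58.1, R 4.3.3, offset 16, negative controls inferred from detection p). Probes that lacked an intensity on any array (14) were dropped. A probe had to be detected (p under 0.05) on 3 or more arrays, which left 24109, of which 6568 without a single symbol were set aside, and the brightest probe per gene gave 12994 genes. Of the probes in the annotation 21332 had 1 symbol, 7 several and 10051 none; 21309 were updated by gene ID. A model with group and passage over all 23 arrays (limma lmFit, eBayes with trend, 16 residual degrees of freedom) gave every contrast, with Benjamini-Hochberg adjustment over all genes. Errors are standard errors. A gene not above background on every array of a group has a bound: the bright group's mean against the higher of its own signal and the lowest detected signal. The number of arrays limits the precision. The sources disagree on whether A and B are independent experiments or technical replicates, so p-values may measure technical spread in part. Arrays sharing passage and experiment deviated from their group means together no more (median correlation 0.239) than arrays sharing the passage alone (0.242). These values still hold the passage effect, and with group and passage removed the medians were -0.119 and -0.163. They do not settle whether A and B pair samples. Passage was the block, and with experiment added to it 32 differences were called and 1 gene after priming.

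Named genes were, by rule, the called genes with the largest differences, the 5 marker genes, reversed and kept genes, up to 4 called members per list, and 6 receptor and target genes; the remaining called genes were named after their values were seen. The comparison, the genes and the lists were chosen with earlier results of these data known. The fit was tested on simulated data. Alternatives covered background, scaling, filters, probes, blocks, arrays and thresholds.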

Additional observations from a re-analysis of the deposited data

Results flagged for a closer look

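Among 111 sets of 4 arrays tested, 1 array stood apart from the other 3 by Dixon's criterion in 6, and chance alone gives about 1 in 20. Pre_IL13 P6-B was the high array for PTGIS (5.80), LIFR (5.03), IL13RA2 (11.81) and POSTN (8.12). IL13 P6-B was high for NFIL3 (9.004) and IL13 P6-A for LIFR (5.97). The difference of responses of CCL11 differed between the passages by 2.51 (passage 8 minus passage 6, limma adjusted p = 0.00109), with CCL11 at 6.95 and 6.73 on the IL13 arrays of passage 8 and 8.65 and 9.21 on those of passage 6.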

How the results depend on the processing

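All 39 genes kept their sign in the 37 alternatives run, and CCL26 alone was called in every one. The main counts were 39 called differences (33 lower, 6 higher), 243 IL-13 genes without priming, 4 after it and 33 lost responses. Median scaling, which moved the median difference of all genes to 0.26, gave 9 (7 and 2), 92, 2 and 8. With no replicate block (passage left out) the counts were 22 (18 lower), 113, 1 and 18, and with passage and experiment as replicate block 1 gene was called after priming. Passage 6 alone gave 114 (79 and 35), 28 after priming and 63 lost; passage 8 alone 8 (7 and 1), 146 without priming and 5 lost. Experiment B alone gave 3 (3 and 0), 41, 1 and 2, and the mean of A and B 3 (3 and 0), 55, 1 and 2. Without both IL13 arrays of passage 6 there were 97 genes without priming, 7 after it and 21 lost; without Pre_IL13 P6-B as well, chosen after seeing the data, 25 differences (20 lower), 91 genes without priming and 18 lost. After priming, a random block of group and passage or a floor for undetected values gave 2, and no intensity trend 1. At an adjusted p under 0.1, 379 genes were called without priming and 8 after it, and at 0.01 135 and 1, with 22 differences (19 and 3) and 20 lost. Leaving out 1 array gave 21 to 68 differences (18 to 52 lower, 3 to 16 higher), 174 to 296 genes without priming, 1 to 45 after it and 19 to 44 lost; the extremes for the differences were Pre_only P6-B and Pre_only P8-B. The cause was not tested beyond the fewer arrays or stricter threshold that a setting brings by construction. Genes near background have compressed changes.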

Other observations

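The difference of responses itself differed between the passages for 15 genes (limma adjusted p under 0.05, 906 at an unadjusted p under 0.05): ADH1A, ADH1B, AKR1C3, CCL11, DGKD, FBXO32, KYNU, NPPB, NR4A2, PDK4, PTGS2, RASD1, RASL12, TDO2 and TNFSF10. Of these only CCL11 is among the 39 genes called over both passages. They include the alcohol dehydrogenases ADH1A and ADH1B, the tryptophan pathway enzymes KYNU and TDO2, and PTGS2, the inducible cyclooxygenase. Passage and beadchip cannot be told apart, and Pre_only has 1 array in passage 8.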
